A study of Rattus norvegicus with 16 samples.

Results

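The baseline transcriptome of the rat right ventricle was described from the 7 control arrays, titled CON, of a series of 16 arrays on pressure load of the right ventricle. Members were chosen by that title alone, and the RVF+ and RVF arrays were not used. Each array held RNA of the right ventricular wall of a male Wistar rat of 160 to 180 g, an outbred strain. Rats of the series were sham operated or had the pulmonary artery banded, and the labels name CON as a condition without saying which operation those rats had. No age, anaesthesia or time of day was given, and whether each of the 7 samples is its own animal is not stated, so the spread given here is that between samples and may be partly technical. There was no comparison between groups and hence no test. Every result is a description of 7 arrays, named CON 1 to CON 7 by the number in their titles.

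The right ventricle pumps blood into the low-pressure circulation of the lung. Its wall is mostly working myocytes by volume, with fibroblasts, endothelium, pericytes and macrophages between them. Myocytes of the rodent ventricle contract through cardiac forms of myosin, actin and the troponins, cycle calcium through the sarcoplasmic reticulum at each beat, and make their ATP mainly by mitochondrial oxidation of fatty acids. Many of the proteins involved come in several isoforms made by separate genes, and the set that a tissue uses sets it apart from atrium, skeletal muscle and the fetal heart. Heart muscle also carries a circadian clock, which moves the levels of its genes with the time of day, and a set of immediate-early genes that is switched on within minutes of stress.

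Levels are log2 of the deposited intensity, and a value with ± is the mean and SD over the 7 arrays. Intensities ran from 2.27 to 10140, and the array medians from 4.76 to 4.81 on the log2 scale. Of 17245 genes measured, each by its brightest probe set, 11339 (65.8%) had a mean above 4.20, the 95th percentile of 237 chemosensory receptor genes of nose and tongue, which served as background. The median of all genes was 5.51, and 0 of the 237 receptor genes lay above it. Because probe sets differ in how brightly they bind, the order of levels between genes is an order of signal, not of transcript number. Pairs of arrays correlated across genes at 0.989 to 0.994. With 7 arrays, a 95% interval for an SD, under normal spread, runs from 0.644 to 2.20 times its estimate.

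Some arrays stood apart by genes known from other tissues, most of them dim. CON 4 had 38 genes at least 1 log2 unit above every other array, 36 of them at or below the median level, against 13 such genes in CON 5, 4 in CON 1, 3 in CON 7 and 0 in CON 2, 3 and 6. Albumin, Alb, the main plasma protein made by the liver, was at 9.48 in CON 4 and between 3.67 and 4.94 in the other arrays. The other liver products followed: the fetuin gene Ahsg was at 7.06, the vitamin D carrier Gc at 6.75, the haem carrier Hpx at 6.00 and the male liver enzyme Cyp2c11 at 5.76 in CON 4, and none of the 4 exceeded 4.20 in any other array. On a list of liver genes written down after Alb had been seen, 38 of 42 measured genes were highest in CON 4, against 18.0% of all genes, and 35 were above the background threshold there, against 5 to 10 in the other arrays. The summed signal of the list was 11.67 in CON 4 and 10.17 to 10.39 elsewhere.

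In CON 1 a fainter signal came from genes of the kidney tubule. Kap, an androgen-regulated protein of the proximal tubule, was at 4.25 in CON 1 and at most 3.04 in the others, the phosphate carrier Slc34a1 at 4.58 against at most 3.57, and the amino acid carrier subunit Slc3a1 at 4.31 against at most 3.39. On a kidney list, also written after the first of these was seen, 15 of 26 measured genes were highest in CON 1, against 12.7% of all genes, but only 8 were above the background threshold there. CON 5 stood apart by fat genes and by single atrial genes, Myl7 and Mybphl, which are given below. Whether these transcripts came from tissue taken along with the wall was not tested. For Car3, Myl7, Nppa, Nppb, Ankrd23 and Xirp2, in which CON 4 or CON 5 stood highest, the SD is also given without that array.

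**Figure D1:**
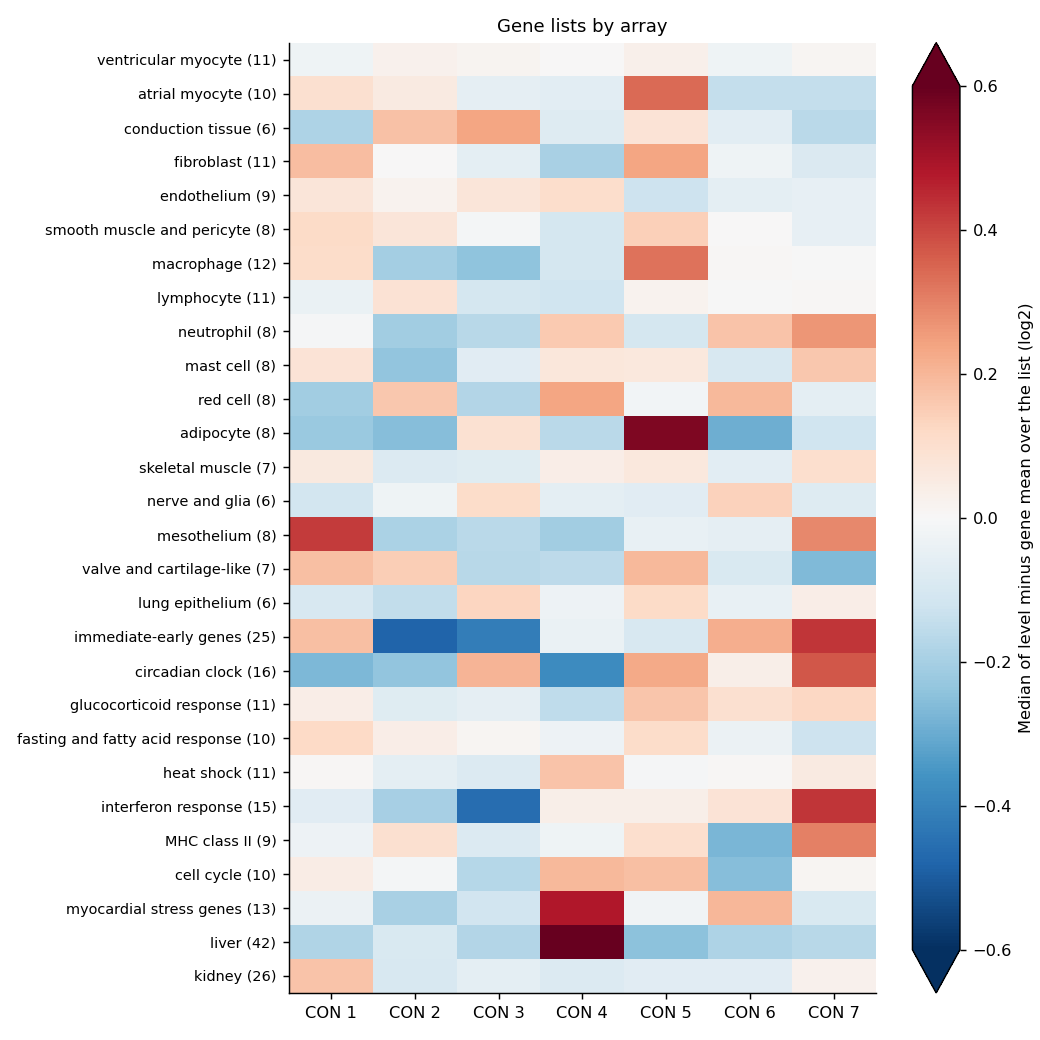
Median, over the measured genes of each list, of a gene's level minus its mean over the 7 control arrays, in log2 units, with the number of measured genes in brackets and the colour scale ending at 0.6. The liver list stands out in CON 4, the adipocyte list in CON 5 and the mesothelium list in CON 1, while immediate-early genes were low in CON 2 and CON 3 and interferon genes high in CON 7 and low in CON 3.

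The label of ventricular wall was checked against marker genes. All 11 ventricular myocyte markers were above the median level, with means up to 12.80, and their summed signal ran from 15.38 to 15.44 over the arrays. Among them Myl3, the essential light chain of the ventricle, was at 12.80 ± 0.039, the cardiac troponin genes Tnnt2, Tnni3 and Tnnc1 at 12.45 ± 0.031, 12.11 ± 0.027 and 12.04 ± 0.084, and Irx4, a transcription factor of the ventricle that represses atrial genes, at 7.14 ± 0.16. Myl2, the regulatory light chain of the ventricle, was at 9.95 ± 0.073. No ventricular marker had an SD of 0.3 or more.

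Markers of the wall's other cells were bright as well. Fibroblast markers were all above the median level (11 of 11), from the matrix proteoglycan Dcn at 12.21 ± 0.053 and the matrix protein Dpt at 10.85 ± 0.10 to the transcription factor Tcf21 at 6.56 ± 0.25. Of the endothelial markers 9 of 9 were above it, with the receptors Tek at 8.79 ± 0.091 and Flt1 at 8.99 ± 0.067 and the surface sialomucin Emcn at 9.10 ± 0.15, as were 12 of 12 macrophage markers, led by the hyaluronan receptor Lyve1 at 8.44 ± 0.25 and the folate receptor Folr2 at 8.04 ± 0.27, both marks of resident macrophages. Rgs5, a pericyte marker, was at 10.89 ± 0.097. Of 11 lymphocyte markers 8 were above the background threshold, against 65.8% of all genes, and 3 above the median level. The 3 were Cd4, which rat macrophages also make, at 8.07 ± 0.11, Nkg7, a granule protein of killer cells, at 7.07 ± 0.22, and the chemokine Ccl5 at 6.85 ± 0.12. The T cell receptor subunit Cd3e was at 4.21 ± 0.32, the cytotoxic T cell marker Cd8a at 4.65 ± 0.15 and the B cell receptor subunit Cd79b at 4.96 ± 0.16, while Cd3d, Cd3g and Ms4a1, a B cell antigen, were below the threshold, at 3.36 ± 0.20, 3.61 ± 0.15 and 3.25 ± 0.27. In the neutrophil, mast cell, nerve and lung epithelium lists 0 genes were above the median level. The surfactant genes Sftpc, Sftpb and Sftpa1 of the lung lay between 3.23 and 3.55, within background. In whole tissue, fewer cells of a type and less RNA per cell cannot be told apart.

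Of 10 measured markers of atrial muscle 8 were above the median level. Of the 8, 5 had an SD of 0.3 or more, against 3.36% of all genes above that level. The even ones were the acetylcholine-gated channel gene Kcnj3 at 10.29 ± 0.21, the secreted Wnt modulator Dkk3 at 9.01 ± 0.13 and the lipid transfer protein gene Stard10 at 7.72 ± 0.096. The atrial light chain Myl7 was at 8.26 ± 1.48, the natriuretic peptide gene Nppa at 7.73 ± 1.43 and sarcolipin, Sln, an inhibitor of the calcium pump that is typical of atrium, at 7.95 ± 1.24. Each was highest in a different array, CON 5, CON 4 and CON 7. Bmp10, a growth factor of the right atrium, was below the background threshold in every array, from 3.22 to 3.58. Mybphl, a myosin-binding protein of atrial muscle, was at 5.13 in CON 5 and between 3.19 and 3.54 elsewhere, and the atrial potassium channel gene Kcna5 was also highest in CON 5. In all, 3 of the 10 markers were highest in CON 5, against 13.7% of all genes. The summed signal of the 10 measured atrial markers was 12.16 in CON 5 and 11.38 to 11.82 in the others. The part of atrial tissue in these values was not tested.

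Among the 30 genes with the highest signal, 10 served mitochondrial energy metabolism, 6 were sarcomere genes, 2 were the calcium pump of the sarcoplasmic reticulum and its regulator, 2 were chaperones, 2 were cytosolic enzymes of glucose and lactate and 2 were ribosomal. Prkaa2, a catalytic subunit of the AMP-activated kinase, and Mb, myoglobin, the oxygen store of red muscle, headed the order at 13.25 ± 0.036 and 13.25 ± 0.053. The glycolytic enzyme gene Gapdh followed at 13.15 ± 0.022, then the receptor phosphatase gene Ptprs at 12.87 ± 0.024, Myl3, and phospholamban, Pln, the brake on the calcium pump, at 12.73 ± 0.029. The rank of some of these rested on the probe set chosen. A second probe set of Prkaa2 read 10.26, one of Ptprs read 8.20 and one of Ndufc2, a complex I subunit, 5.58, and the 6 probe sets of Gapdh ran from 10.31 to 13.15.

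The mitochondrial genes of this group served the citrate cycle, the respiratory chain and the making and export of ATP. They were the ATP synthase subunits Atp5f1b (12.65 ± 0.035) and Atp5f1d (12.54 ± 0.077), the citrate cycle enzymes Mdh2 (12.31 ± 0.044) and Idh2 (12.22 ± 0.051), the phosphate carrier Slc25a3 (12.24 ± 0.047), the ADP/ATP carrier Slc25a4 (12.23 ± 0.045), the complex III subunit Uqcrb (12.14 ± 0.072), the muscle form of a cytochrome oxidase subunit, Cox6a2 (12.12 ± 0.031), Ndufc2 (12.12 ± 0.076) and cytochrome c, Cycs (12.05 ± 0.098). Cycs was at 12.26 in CON 4 and between 11.99 and 12.06 in the others, and its SD without CON 4 was 0.026. Of the remaining genes, Dcn encodes decorin of the matrix, Lpl the lipoprotein lipase that frees fatty acids from blood lipids (12.10 ± 0.038), and Ankrd1 a muscle ankyrin repeat protein that rises with stretch (12.12 ± 0.14). Ankrd1 was the least even of the 30, lowest at 11.92 in CON 2 and highest at 12.38 in CON 4, with an SD of 0.078 without CON 4. Just inside the 30 stood Tnnc1, and just outside the cytoskeletal actin gene Actb at 12.04 ± 0.067, Ckm, the muscle creatine kinase, at 12.03 ± 0.043, and Atp5mf at 12.02 ± 0.091, so the limit of 30 cut through genes closer together than their SDs.

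In all 22 families of contraction, excitation and metabolism, 315 of 362 listed genes were measured. Of the 315, 234 were above the background threshold, against 65.8% of all genes, and 201 above the median level. Of those 201, 18 had an SD of 0.3 or more while 3.36% of all genes above the median level did. The measured set left out genes without a probe set of a single symbol here, such as Fabp3, Cd36, Acta2, Myl4 and Tcap, which were not analysed here.

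**Figure D2:**
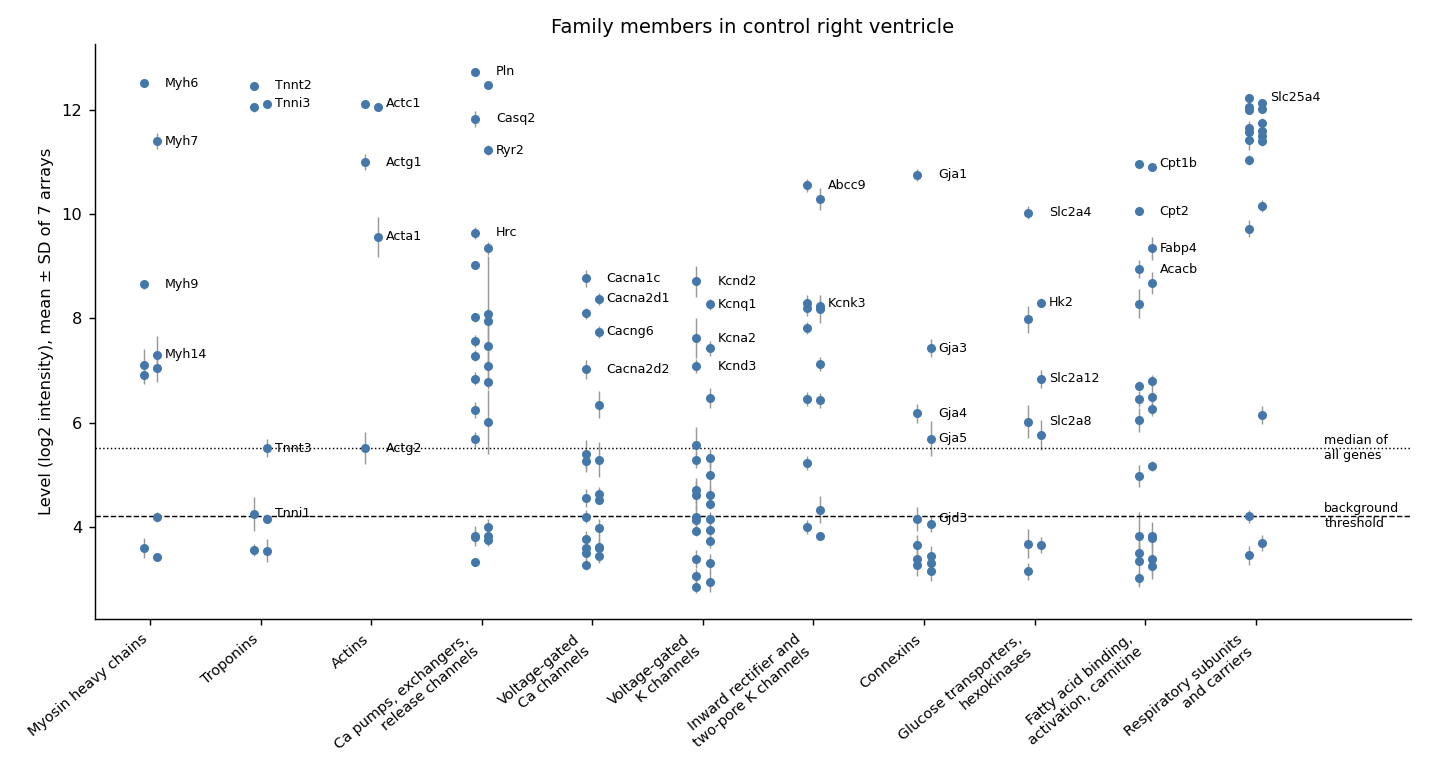
Mean level in log2 intensity, with the SD over the 7 control arrays as bars, of each measured member of 11 families, with some members named. In the myosin heavy chain and troponin families a few members lie above 10, and of the connexins Gja1 alone does. In each of these families others lie at or under the background threshold of 4.20. Most respiratory subunits and carriers lie above 9.

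The myosin heavy chains separated into cardiac and skeletal forms. Myh6, the fast cardiac form of the adult rodent, was at 12.51 ± 0.047 and Myh7, the slow form that prevails in the fetal and loaded heart, at 11.39 ± 0.15. The difference of Myh6 minus Myh7 within an array was 1.12 ± 0.17 on the log2 scale, smallest at 0.92 in CON 7 and largest at 1.37 in CON 5. CON 7 was highest for Myh7, at 11.61, and CON 5 lowest, at 11.20. Both are made from neighbouring genes of similar sequence, so some signal may be shared between their probes. Myh7b, an ancient relative, was at 7.05 ± 0.27. The skeletal forms Myh2 (fast oxidative), Myh8 (neonatal) and Myh13 (eye muscle) were at 4.19 ± 0.095, 3.60 ± 0.20 and 3.43 ± 0.082, each below the background threshold. Myh1, Myh3 and Myh4 were listed but not measured. Non-muscle Myh9 was at 8.65 ± 0.089, Myh14 at 7.30 ± 0.36, Myh10 at 6.90 ± 0.16 and smooth muscle Myh11 at 7.11 ± 0.30. Myh14 ran from 6.60 in CON 1 to 7.62 in CON 3. Myh11 was lowest in CON 7 (6.53) and highest in CON 5 (7.47), as were Tagln (6.94 and 7.91) and Cnn1 (4.46 and 5.55), both actin-binding proteins of smooth muscle. Of the 8 measured markers of smooth muscle and pericytes 4 were highest in CON 5, against 13.7% of all genes. Rgs5, Pdgfrb, Kcnj8 and Abcc9 were highest in CON 4, CON 2, CON 1 and CON 3, and none of them was lowest in CON 7. The part of vessel wall in these values was not tested.

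Of 8 troponin genes 5 were above background, against 65.8% of all genes. The cardiac genes Tnnt2, Tnni3 and Tnnc1 all lay above 12, with SDs of 0.031, 0.027 and 0.084. The slow skeletal forms Tnni1 and Tnnt1 were at 4.25 ± 0.33 and 4.16 ± 0.083, and the fast forms Tnni2 and Tnnc2 at 3.55 ± 0.22 and 3.55 ± 0.11. Fast Tnnt3 was at 5.51 ± 0.18, close to the median of all genes. Tnni1, the form of the fetal heart, was above the threshold in 3 arrays, CON 1, CON 3 and CON 7.

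Of the actins, cardiac Actc1 was at 12.11 ± 0.024 and among the most even genes, while Acta1, the skeletal form that rises in the loaded heart, was at 9.56 ± 0.39. Acta1 was lowest at 9.13 in CON 5, had a median of 9.63 and was highest at 10.04 in CON 4. The within-array difference of Actc1 minus Acta1 ran from 2.10 in CON 4 to 2.99 in CON 5. In the thin filament caps, Tmod1, the form of heart, was at 10.46 ± 0.050, and Tmod4, the form of skeletal muscle, at 8.78 ± 0.34. Tmod4 was at 9.02 to 9.28 in CON 2, CON 3 and CON 7 and at 8.45 to 8.57 in the rest, a split read from these same values. The leiomodins Lmod2 and Lmod3, which lengthen thin filaments in striated muscle, were at 10.61 ± 0.17 and 8.11 ± 0.27, and smooth muscle Lmod1 at 5.28 ± 0.20. Of the tropomyosins, Tpm1, the main form of heart, was at 10.10 ± 0.036, Tpm3 at 9.01 ± 0.061, the non-muscle form Tpm4 at 10.35 ± 0.13 and Tpm2, a form of slow skeletal and smooth muscle, at 6.01 ± 0.26.

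In the thick filament and Z-disc family 14 of 19 measured genes were above background, against 65.8% of all genes. Cardiac Mybpc3 was at 11.26 ± 0.11 and the skeletal forms Mybpc1 and Mybpc2 at 3.82 ± 0.12 and 3.93 ± 0.34, below the threshold. The muscle alpha-actinin Actn2 was at 10.98 ± 0.029 and the fast-fibre form Actn3 at 3.84 ± 0.12. Myoz2, the cardiac and slow-muscle binder of calcineurin, was at 11.33 ± 0.046 and the fast form Myoz1 at 4.66 ± 0.14. M-band genes Myom1 and Myom2 were at 10.24 ± 0.060 and 11.42 ± 0.11, Myom3 at 4.95 ± 0.18, and titin, Ttn, at 11.76 ± 0.13. In this family 0 of 12 genes above the median had an SD of 0.3 or more, against 3.36% of all genes above that level.

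Of 25 measured genes of calcium cycling 19 were above background, against 65.8% of all genes, and the 19 were all above the median level. The pump Atp2a2 was at 12.46 ± 0.036 and its brake Pln at 12.73 ± 0.029, and their difference within an array varied by an SD of 0.045. The release channel Ryr2 was at 11.22 ± 0.094, Ryr3 at 6.78 ± 0.15 and skeletal Ryr1 at 3.74 ± 0.061, below the threshold. The calcium store protein Casq2 was at 11.82 ± 0.15, and its skeletal form Casq1 was at 7.46 ± 0.43, lowest at 6.88 in CON 3 and highest at 8.20 in CON 5. The exchanger Slc8a1 was at 9.01 ± 0.075 and the neuronal forms Slc8a2 and Slc8a3 at 3.83 ± 0.19 and 3.32 ± 0.077. The junctophilin Jph2, which ties the surface membrane to the store, was at 9.34 ± 0.12, Jph1 of skeletal muscle at 6.84 ± 0.12, and Jph3 and Jph4 of brain at 3.82 ± 0.18 and 3.81 ± 0.11. Of this family, 3 of 19 genes above the median had an SD of 0.3 or more, against 3.36% of all genes above that level. They were Sln, Casq1 and the surface pump Atp2b2. Atp2b2 fell into 2 groups, at 5.00 and 5.26 in CON 6 and CON 1 and at 6.20 to 6.47 in the others.

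Sln varied most. It was lowest at 6.45 in CON 3, had a median of 8.08 and was highest at 10.03 in CON 7, and its SD without CON 7 was 0.91. CON 3 and CON 6 lay together at 6.45 and 6.48, 4 arrays lay between 7.76 and 8.48, and CON 7 alone was at 10.03. Pln, which binds the same pump, had an SD of 0.029 over these arrays.

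Of the sodium-potassium pump family, the beta subunit Atp1b1 was at 10.22 ± 0.11, Atp1b2 at 6.00 ± 0.15 and Atp1b3 at 7.94 ± 0.22. The regulator Fxyd1, phospholemman, was at 12.01 ± 0.046.

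The pore of the L-type calcium channel of heart, Cacna1c, was at 8.77 ± 0.16, and the pores of neuron and retina, Cacna1b, Cacna1e and Cacna1f, were at 3.28 ± 0.10, 3.50 ± 0.19 and 3.44 ± 0.13, below the threshold. Cacna1d, the L-type pore of pacemaker cells, was at 4.64 ± 0.14. The T-type pores Cacna1h and Cacna1g were at 6.34 ± 0.26 and 5.40 ± 0.26. Cacnb2 and Cacna2d1, partners of the cardiac pore, were at 8.09 ± 0.11 and 8.38 ± 0.11, and the muscle subunits Cacng6 and Cacng1 at 7.74 ± 0.12 and 3.78 ± 0.16. Of 21 measured genes of this family 12 were above background, against 65.8% of all genes. Above the median level were 6 of the 21, as were 8622 of all 17245 genes. Of the 6, 0 had an SD of 0.3 or more, against 3.36% of all genes above that level.

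The potassium channels of the transient outward current, Kcnd2 and Kcnd3, were at 8.71 ± 0.30 and 7.08 ± 0.13. Kcnd2 was lowest at 8.29 in CON 1, had a median of 8.66 and was highest at 9.14 in CON 6, and the difference of Kcnd2 minus Kcnd3 ran from 1.39 in CON 4 to 2.08 in CON 6. Kcna4, another pore of that current, was at 5.29 ± 0.16. Kcna2 was at 7.62 ± 0.39, with CON 3 highest at 8.33 and CON 5 lowest at 7.11, and atrial Kcna5 at 5.57 ± 0.35. Of the delayed rectifiers, Kcnq1 was at 8.27 ± 0.10 and Kcnh2 at 7.43 ± 0.14, with low signal for the partner subunits Kcne1 and Kcne2 (4.61 ± 0.18 and 4.15 ± 0.14). Among inward rectifiers, Kcnj2, which sets the resting potential, was at 8.24 ± 0.13, and Kcnj12 at 6.46 ± 0.14. Kcnj3 and Kcnj5, which form the channel opened by acetylcholine, were at 10.29 ± 0.21 and 8.18 ± 0.27, a current textbooks assign chiefly to atrium and nodes. The ATP-sensitive channel was represented by the pores Kcnj11 (8.19 ± 0.14) and Kcnj8 (7.81 ± 0.12) and the receptors Abcc9 (10.55 ± 0.12) and Abcc8 (7.12 ± 0.13). The two-pore channel Kcnk3 was at 8.29 ± 0.16 and Kcnk2 at 6.43 ± 0.14.

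Pacemaker channel genes were above background in the wall, and which of its cells gave the signal was not tested. Hcn2 was at 7.60 ± 0.097 and Hcn4, the main form of the sinus node, at 7.18 ± 0.36, lowest at 6.56 in CON 7 and highest at 7.50 in CON 3, while Hcn3 was at 4.22 ± 0.097, at the threshold. Their difference, Hcn2 minus Hcn4, ran from 0.014 in CON 3 to 1.16 in CON 7. The node markers Isl1 and Cntn2 were at 3.21 ± 0.24 and 4.23 ± 0.17, and Tbx3, a repressor active in the conduction system, at 5.99 ± 0.25. The sodium channel genes Scn4b and Scn7a were at 8.58 ± 0.24 and 8.63 ± 0.23, the neuronal Scn8a and Scn11a at 3.44 ± 0.095 and 2.83 ± 0.10. Scn4b was at 8.06 in CON 4 and from 8.62 to 8.80 in the others. Of 12 connexins measured, 4 were above the background threshold, against 65.8% of all genes. They were Gja1, the main ventricular form, at 10.75 ± 0.12, Gja3 at 7.43 ± 0.18, Gja4 of arteries at 6.18 ± 0.18 and Gja5 of atrium, conduction fibres and arteries at 5.70 ± 0.34.

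Glucose use showed muscle isoforms beside ubiquitous forms. The insulin-responsive carrier Slc2a4 was at 10.03 ± 0.12 and the basal carrier Slc2a1 at 7.98 ± 0.27, and the liver carrier Slc2a2 at 3.15 ± 0.16. Hexokinase Hk2 was at 8.30 ± 0.082. The muscle enzymes Pfkm, Eno3 and Pgam2 were at 10.12 ± 0.14, 11.63 ± 0.099 and 10.44 ± 0.10, and the liver and platelet forms Pfkl and Pfkp at 7.26 ± 0.12 and 6.65 ± 0.12. Neuronal Eno2 was at 6.00 ± 0.40 and neural Aldoc at 5.00 ± 0.28, and the liver pyruvate kinase Pklr at 3.63 ± 0.18, below the threshold. Pfkfb2, the heart form of the enzyme that makes the activator of phosphofructokinase, was among the few uneven members at 7.00 ± 0.51, lowest at 6.31 in CON 1 and highest at 7.59 in CON 3. Lactate dehydrogenase Ldhb, the form of heart, was at 12.10 ± 0.042 and Ldha at 11.79 ± 0.095, with a within-array difference of 0.30 ± 0.071. The lactate carrier Slc16a1 was at 10.61 ± 0.063, and Slc16a3, which exports lactate from glycolytic muscle, at 4.40 ± 0.33. Glycogen phosphorylase was seen as the muscle form Pygm (11.83 ± 0.040) and the brain form Pygb (10.53 ± 0.090), with the liver form Pygl at 4.86 ± 0.15. Glycogen synthase Gys1 was at 9.22 ± 0.14 and liver Gys2 at 3.31 ± 0.087.

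The brakes on pyruvate oxidation, the pyruvate dehydrogenase kinases, were at 11.27 ± 0.20 for Pdk4, 10.44 ± 0.068 for Pdk2, 9.88 ± 0.087 for Pdk1 and 5.65 ± 0.15 for Pdk3. Pdk4, which rises with fasting and fatty acids, was lowest in CON 4 and CON 7, at 10.99 and 11.00, and between 11.23 and 11.49 in the others. The mitochondrial uncoupling protein Ucp3, which responds to the same signals, was lowest in CON 7, at 5.41, and highest in CON 1, at 6.92, with an SD of 0.51. On the fasting and fatty acid list 7 genes were above the median level. Of them 1, Ucp3, had an SD of 0.3 or more, against 3.36% of all genes above that level.

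In the fatty acid family 15 of 23 measured genes were above background, against 65.8% of all genes. Above the median level were 13 of the 23, as were 8622 of all 17245 genes. The muscle carnitine palmitoyltransferase Cpt1b was at 10.97 ± 0.061, the liver form Cpt1a at 8.68 ± 0.22 and the brain form Cpt1c at 4.98 ± 0.21, and Cpt2 was at 10.05 ± 0.061. The difference of Cpt1b minus Cpt1a was between 2.15 and 2.69, largest in CON 4, where Cpt1a was lowest at 8.25. The acyl-CoA synthetase Acsl1 was at 10.89 ± 0.056, with Acsl3, Acsl4, Acsl5 and Acsl6 at 6.49 ± 0.31, 6.05 ± 0.23, 6.80 ± 0.11 and 6.71 ± 0.091. The fatty acid transporter Slc27a1 was at 8.28 ± 0.28, Slc27a4 at 6.45 ± 0.15, and Slc27a3, Slc27a5 and Slc27a6 below the threshold at 3.40 ± 0.27, 3.25 ± 0.24 and 3.51 ± 0.14. Fabp4, the binding protein of capillaries and fat cells, was at 9.34 ± 0.22. The liver form Fabp1 and the liver transporter Slc27a2 were at 4.38 and 4.77 in CON 4 and at most 3.54 and 3.95 in the others, with the liver genes above. Acetyl-CoA carboxylase Acacb, which controls fatty acid entry into mitochondria, was at 8.94 ± 0.17, and Acaca, which feeds fat synthesis, at 6.26 ± 0.14.

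Energy transfer used Ckm at 12.03 ± 0.043 and the brain form Ckb at 8.87 ± 0.22, while the ubiquitous mitochondrial form Ckmt1 was at 4.30 ± 0.16. In cytochrome oxidase the muscle forms Cox6a2 and Cox8b were at 12.12 ± 0.031 and 11.56 ± 0.081, the ubiquitous Cox6a1 and Cox8a at 9.72 ± 0.16 and 11.39 ± 0.092, and the lung form Cox4i2 and the testis forms Cox6b2 and Cox8c at 6.15 ± 0.18, 4.20 ± 0.13 and 3.46 ± 0.18. The carriers Slc25a4 and Slc25a5 were at 12.23 ± 0.045 and 11.03 ± 0.097 and the germ cell form Slc25a31 at 3.69 ± 0.16. All 14 measured citrate cycle genes and their relatives were above the median level and none had an SD of 0.3 or more, the range of means running from 6.49 for the malic enzyme Me2 to 12.31 for Mdh2. Among regulators, the coactivators Ppargc1a and Ppargc1b were at 9.71 ± 0.090 and 8.14 ± 0.12, the receptors Ppara, Ppard and Pparg at 9.20 ± 0.20, 9.03 ± 0.25 and 6.31 ± 0.13, and Esrrg and Esrra at 8.50 ± 0.15 and 6.76 ± 0.14. Uncoupling protein Ucp2 was at 10.65 ± 0.16 and Ucp1 of brown fat at 3.18 ± 0.10, below the threshold.

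Spread between the control arrays was small for most genes. Among the 8622 genes above the median level the median SD was 0.12 and the 95th percentile 0.26, and it fell with level, from a median of 0.15 just above the median level to 0.098 in the brightest 1725 genes. In all, 290 genes had an SD of at least 0.3, 62 of at least 0.5 and 6 of at least 1. The most even genes were Pold3, a DNA polymerase subunit (6.07 ± 0.017), Paics of purine synthesis (9.34 ± 0.018), Hadhb of beta-oxidation (11.48 ± 0.019), Cox6b1 (11.99 ± 0.020), Pias1, a SUMO ligase (8.68 ± 0.021), Gapdh, the cytokine receptor Il6st (9.39 ± 0.023), the clathrin gene Cltc (10.14 ± 0.024), Ptprs and Cggbp1 (7.19 ± 0.024).

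**Figure D3:**
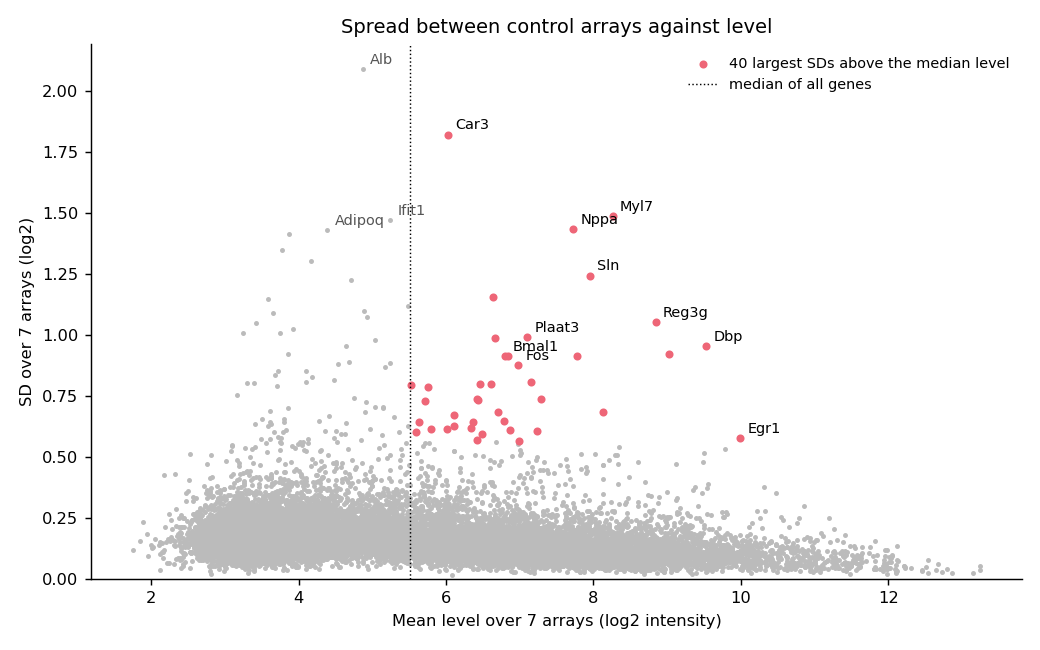
SD over the 7 control arrays against the mean level of each of 17245 genes, both on the log2 scale, with the 40 largest SDs above the median level in red. Most genes lie under an SD of 0.26, Car3, Myl7, Nppa and Sln lie far above, and Alb, Adipoq and Ifit1 are the most uneven of the named genes under the median level.

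Of the 40 genes with the largest SD, 23 were on none of the 48 lists and 17 on at least 1, while the lists held 332 of the 8622 genes above the median level. Among the 17 were 5 clock genes, 4 immediate-early genes, 4 myocardial stress genes and 3 atrial genes (Nppa stands in both of the last lists). CON 7 was the highest array for 13 of the 40 and CON 5 for 12. The smallest SD among the 40 was that of Myoc, a secreted glycoprotein, at 0.57, and the largest left out that of Cd1d1, a lipid-presenting molecule, at 0.56.

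Car3, a carbonic anhydrase of fat and slow muscle, was the least even gene above the median level. It was lowest at 4.08 in CON 7, had a median of 5.51 and was highest at 9.54 in CON 5, with CON 3 next at 7.10, and its SD fell from 1.82 to 1.04 without CON 5. Fat markers moved with it. Of 8 adipocyte markers 7 were highest in CON 5, against 13.7% of all genes, among them the hormone gene Adipoq at 7.33 against 3.39 to 5.06 elsewhere, Cidec of lipid droplets at 5.82 against 3.55 to 4.38 and the droplet coat gene Plin1 at 5.33 against 3.88 to 4.37. CON 3 was second for Adipoq and Cidec, as it was for Car3. The summed signal of the list ran from 10.17 to 10.94, largely set by Cidea, which was bright in every array at 10.33 ± 0.28. The other genes more than 1 unit above all other arrays in CON 5 included Cdo1, an enzyme of cysteine breakdown that is abundant in fat and liver, at 8.20 against 6.64 to 7.01, and the neuropeptide gene Npy at 8.07 against 6.01 to 6.96. Macrophage markers were highest in CON 5 in 10 of 12 cases, with a summed signal of 11.29 there and 10.69 to 11.09 in the others, and the fibrous tissue gene Sfrp2, a Wnt inhibitor, was at 7.91 in CON 5 and 7.19 in CON 1 against 5.76 to 6.26. Fmod and Chad, matrix genes of tendon, valve and cartilage, also had CON 5 and CON 1 as their highest arrays, with 7.00 and 6.94 for Fmod against 4.36 to 5.83 and 5.57 and 5.97 for Chad against 4.02 to 4.77. Over the list of such genes the summed signal was 8.38 in CON 1, 8.22 in CON 5 and 6.94 to 7.64 elsewhere. Of the 7 measured, 3 were highest in CON 1, against 12.7% of all genes. CON 2, CON 3, CON 4 and CON 5 were each highest for 1. Acan, the main proteoglycan of cartilage, was lowest in CON 5, at 3.64. The part of fat and fibrous tissue in these values was not tested.

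Myl7 was lowest at 6.22 in CON 4, had a median of 8.43 and was highest at 10.79 in CON 5. Its values did not follow those of Nppa, which was lowest at 6.35 in CON 7, had a median of 7.03 and was highest at 10.20 in CON 4. Without CON 5 the SD of Myl7 was 1.07, and without CON 4 that of Nppa was 1.02, so each stayed among the least even genes. Nppb, the second natriuretic peptide of heart muscle, was lowest at 7.69 in CON 2, had a median of 8.99 and was highest at 10.42 in CON 4, followed by CON 6 and CON 5. Nppa had the same 3 arrays at the top.

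CON 4 was the highest array for further genes of load and stress. Of 13 myocardial stress genes 6 were highest there, against 18.0% of all genes and 23.5% of genes above the median level. Of the 10 above the median, 6 had an SD of 0.3 or more, against 3.36% of all genes above that level. Ankrd23, a titin-bound ankyrin repeat protein, was at 7.14 in CON 4 and 5.26 to 6.64 in the others, and Xirp2, a Xin repeat protein of the intercalated disc, at 10.81 against 10.00 to 10.31. Acta1 and Ankrd1 were also highest in CON 4. Myh7 was not, as CON 4 held the median of its 7 values, 11.44. Of 11 heat shock genes 6 were highest in CON 4, among them Hsp90aa1 at 10.05 against 9.18 to 9.47. As CON 4 was also the array with liver transcripts and was highest for 23.5% of all genes above the median, its part in the spread is given by leaving it out: the SD was 0.75 without it for Nppb, 0.54 for Ankrd23 and 0.10 for Xirp2. The matricellular gene Postn was high in CON 5 and CON 4, at 6.51 and 6.48, and low in CON 7 and CON 3, at 4.79 and 4.84.

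Clock genes divided the arrays. In the molecular clock Bmal1 with its partners Clock or Npas2 drives the Per and Cry repressors and the output factors Dbp and Tef, which peak at the opposite time of day to Bmal1. Of 20 clock genes listed 16 were measured. Of the 15 above the median level 12 had an SD of 0.3 or more, against 3.36% of all genes above that level. Dbp was at 8.16 in CON 4, 8.46 in CON 1 and 9.11 in CON 2, and at 9.94 to 10.56 in the other 4 arrays. Bmal1 showed the opposite order, at 7.51 in CON 2, 7.63 in CON 1 and 7.98 in CON 4 and at 5.56 to 6.63 in the other 4. In both genes the arrays CON 1, 2 and 4 did not overlap with CON 3, 5, 6 and 7.

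The same division held for most of the clock. Of the 15 genes, 9 had CON 1, 2 and 4 all below the other arrays, an order shown by 2.06% of all genes above the median level, and 5 had them all above, an order shown by 2.91%. The 9 were Per1, Per2, Per3, Dbp, Tef, Usp2, a deubiquitinase driven by the clock, Bhlhe40 and Bhlhe41, which are repressors, and Cry2. The 5 were Bmal1, Clock, Npas2, Cry1 and Nfil3, a repressor that opposes Dbp at its binding sites. Only Wee1, a cell cycle kinase, had them in neither order. Per3 was at 5.90 to 6.91 in CON 1, 2 and 4 and at 7.61 to 7.91 in the others, Per2 at 6.06 to 6.27 and 6.88 to 7.78, and Npas2 at 7.63 to 7.83 and 6.45 to 7.34. Clock moved little, with an SD of 0.17. CON 7 had the highest Dbp, Per2, Per3, Tef and Usp2 and the lowest Bmal1, Clock, Npas2 and Nfil3. The split into these arrays was read from the same values, and the labels give no time of day for any sample.

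Of 11 measured genes that respond to glucocorticoid hormone, Per1, Klf9 and Tsc22d3 had CON 1, 2 and 4 all below the other arrays. That order was shown by 2.06% of all genes above the median level, and the split was read from these same arrays. Klf9 was at 8.32 to 8.81 in CON 1, 2 and 4 and at 8.93 to 9.25 in the others. Tsc22d3 was at 7.70 to 7.71 and at 7.80 to 8.15. A second, dimmer probe set of Klf9 had CON 2 at 4.72, just above CON 3 at 4.71. In Sgk1, Ddit4, Errfi1, Lcn2 and Mt1 the arrays CON 1, 2 and 4 overlapped with the others. Zbtb16, another target of the hormone, was lowest in CON 4 and CON 1, at 7.38 and 7.42, but CON 2 overlapped with the others at 7.67. In the glucocorticoid list 5 of 11 genes had an SD of 0.3 or more, against 3.36% of all genes above the median level. They were Per1, Klf9, the iron carrier Lcn2, the cell cycle inhibitor Cdkn1a and the metallothionein Mt1. Cdkn1a had the opposite order, at 8.10 to 8.46 in CON 1, 2 and 4 and at 7.39 to 8.12 in the others, where CON 6 overlapped. Fkbp5, a standard glucocorticoid target, was at 6.61 ± 0.17, with CON 3 lowest at 6.31 and CON 6 highest at 6.85.

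Promoters of the clock genes were read to show where their known control sites lie. The motifs searched on both strands, from 250 bases before to 50 after the start, were the E-box CACGTG, bound by Bmal1 with Clock, the D-box TTATGTAA or TTACGTAA, bound by Dbp and Tef, and the ROR element, which drives Bmal1. Of 13 clock genes with a promoter in the table, 3 held an E-box (Bhlhe40, Bhlhe41 and Tef), 1 a D-box (Per2) and 1 the ROR element (Bmal1), while 6.42%, 1.01% and 0.356% of all 33469 promoters held them. A match is a description of letters only, and other sites outside the window were not looked for. The 4 stretches shown, from the RefSeq annotation of build GRCr8, are the 250 bases before the start, 5′ to 3′ on the strand of the gene, with the motif in capitals, and were chosen because each holds a clock motif and belongs to a gene that divided the arrays.
Bmal1, chr1:176766078-176766327, plus strand, ROR element 20 bases before the start: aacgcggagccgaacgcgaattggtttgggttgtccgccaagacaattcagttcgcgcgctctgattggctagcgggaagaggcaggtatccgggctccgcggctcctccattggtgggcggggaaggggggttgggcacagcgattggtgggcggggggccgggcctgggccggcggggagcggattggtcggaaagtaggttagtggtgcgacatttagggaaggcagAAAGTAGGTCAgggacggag
Per2, chr9:99496994-99497243, minus strand, D-box 192 bases before the start: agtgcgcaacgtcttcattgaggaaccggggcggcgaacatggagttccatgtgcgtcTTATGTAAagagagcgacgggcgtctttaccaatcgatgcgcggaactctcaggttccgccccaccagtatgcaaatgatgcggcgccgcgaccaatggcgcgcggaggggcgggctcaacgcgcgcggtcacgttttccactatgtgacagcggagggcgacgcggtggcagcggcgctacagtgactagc
Tef, chr7:115206577-115206826, plus strand, E-box 198 bases before the start: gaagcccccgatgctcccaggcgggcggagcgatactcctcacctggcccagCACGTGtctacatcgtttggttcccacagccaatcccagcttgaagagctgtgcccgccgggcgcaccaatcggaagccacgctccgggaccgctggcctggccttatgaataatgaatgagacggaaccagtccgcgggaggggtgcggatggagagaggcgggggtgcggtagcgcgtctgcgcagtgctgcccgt
Bhlhe41, chr4:180569356-180569605, minus strand, E-box 48 bases before the start: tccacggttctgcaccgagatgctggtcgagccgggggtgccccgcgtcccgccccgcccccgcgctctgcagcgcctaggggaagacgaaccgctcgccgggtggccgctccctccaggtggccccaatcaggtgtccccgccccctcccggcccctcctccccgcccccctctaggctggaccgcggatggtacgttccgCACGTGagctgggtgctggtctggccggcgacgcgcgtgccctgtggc
The Bmal1 stretch belongs to the gene that was high in CON 1, 2 and 4, and the other 3 to genes that were low there.

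**Figure D4:**
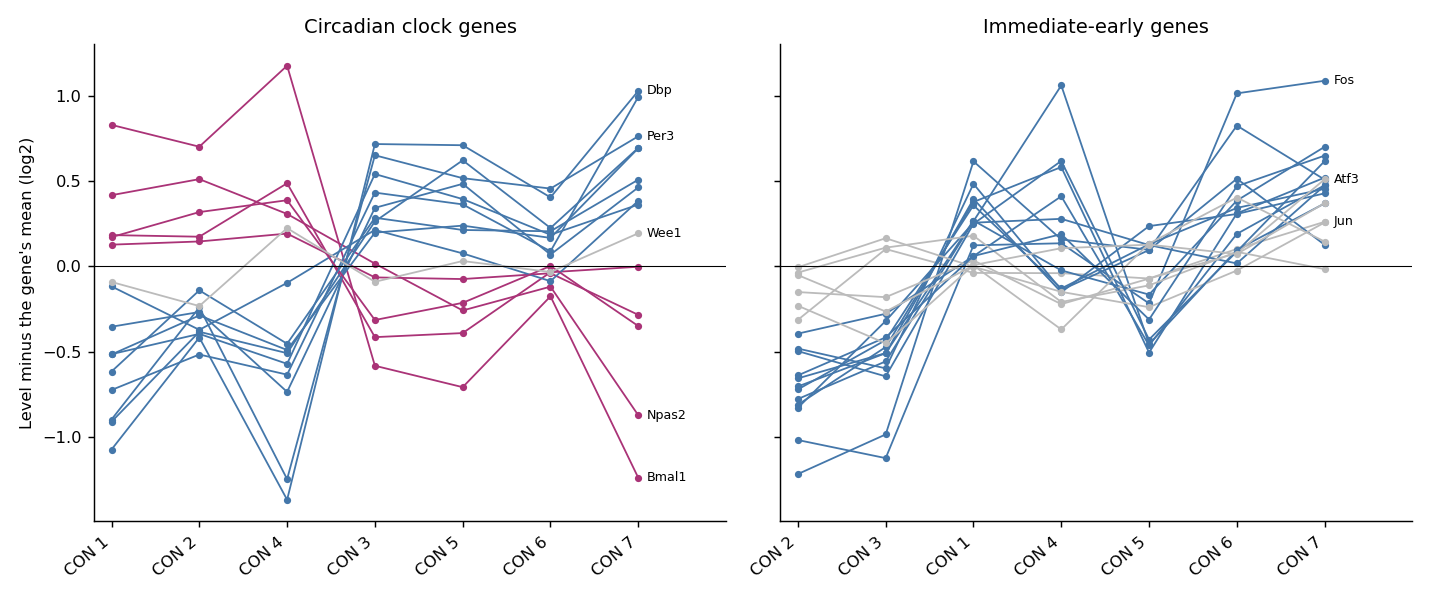
Level minus the gene's mean, in log2 units, of 15 clock genes and 18 immediate-early genes above the median level, with arrays reordered so that CON 1, 2 and 4 come first on the left and CON 2 and 3 on the right. Bmal1, Clock, Npas2, Cry1 and Nfil3, in purple, run opposite to the other clock genes, and most immediate-early genes are lowest in CON 2 and CON 3 (grey marks Wee1 and immediate-early genes with an SD under 0.3).

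Immediate-early genes split the arrays in another way. These genes, which encode transcription factors and feedback regulators, are induced within minutes by growth factors, calcium or handling of tissue. Of 27 listed 25 were measured. Of the 18 above the median level 12 had an SD of 0.3 or more, against 3.36% of all genes above that level. Fos was at 5.85 and 5.96 in CON 3 and CON 2, at 6.76 to 7.11 in CON 5, 1 and 4 and at 7.99 and 8.07 in CON 6 and CON 7. Egr1 was at 9.18, 9.49 and 9.52 in CON 2, 5 and 3 and at 10.30 to 10.58 in the other 4 arrays. Atf3 was at 5.40 and 5.63 in CON 2 and CON 3 and at 6.71 to 7.44 in the others.

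The pair CON 2 and CON 3 was read from these same values, so counts of its order are a description only. Both were below all other arrays in 11 of the 18, an order that 7.07% of genes above the median level showed. Junb, Zfp36, which destabilises cytokine mRNA, the orphan receptors Nr4a1, Nr4a2 and Nr4a3, Ier3, Ccn1 and Ccn2 were among them, with means of 7.63 ± 0.49, 8.60 ± 0.48, 7.32 ± 0.45, 7.38 ± 0.43, 5.76 ± 0.46, 7.66 ± 0.44, 9.79 ± 0.53 and 7.32 ± 0.27. Of all 25 measured genes of the list, 13 were highest in CON 7, against 13.8% of all genes. Dusp1, a phosphatase that ends the response, was at 11.06 in CON 7 and 10.33 to 10.63 in the others. The shear-stress factors Klf2 and Klf4 and the factor Jun varied less, with SDs of 0.17, 0.13 and 0.18. In CON 4 Egr1, Egr2 and Egr3 were highest, with 6.70 for Egr3 and 6.10 for Egr2, while Egr4 was lowest there, at 4.11, and Fos was in the middle. The inflammatory genes Il1b and Cxcl1 had the same low arrays: Il1b was at 4.23 and 4.81 in CON 3 and CON 2 and at 5.54 to 6.62 in the others, and Cxcl1 at 5.42 and 5.75 in CON 2 and CON 3 and at 6.12 to 7.19 in the others. Neither the delay before freezing nor the order of handling was given.

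Control sites of immediate-early genes were read in the same way. The CArG box, bound by serum response factor, was found in 3 of 17 genes with a promoter (Egr1, Egr2 and Zfp36) against 1.64% of all promoters, and the cyclic AMP response element TGACGTCA in 3 (Dusp1, Ier2 and Maff) against 1.83%. The 250 bases before the start are shown in the same way for 1 gene of each kind, Zfp36, which was low in CON 2 and CON 3, and Dusp1, which stood out in CON 7, with the motif in capitals.
Zfp36, chr1:92799109-92799358, minus strand, CArG box 32 bases before the start: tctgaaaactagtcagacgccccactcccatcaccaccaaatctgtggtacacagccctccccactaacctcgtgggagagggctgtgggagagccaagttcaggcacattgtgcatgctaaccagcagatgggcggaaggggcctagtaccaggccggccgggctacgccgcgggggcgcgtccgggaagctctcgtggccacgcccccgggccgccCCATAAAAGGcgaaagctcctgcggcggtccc
Dusp1, chr10:17184603-17184852, plus strand, cyclic AMP response element 124 bases before the start: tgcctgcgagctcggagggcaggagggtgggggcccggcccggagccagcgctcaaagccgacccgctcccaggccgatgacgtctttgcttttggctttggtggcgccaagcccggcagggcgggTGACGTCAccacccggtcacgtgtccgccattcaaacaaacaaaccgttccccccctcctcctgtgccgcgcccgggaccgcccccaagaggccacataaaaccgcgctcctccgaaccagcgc
Zfp36 was lowest in CON 2 and CON 3, at 7.96 and 8.19, and Dusp1 lowest in CON 4.

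Interferon-induced genes were mostly highest in CON 7. Of 15 measured, 11 were highest in CON 7, against 13.8% of all genes, and 9 were lowest in CON 3, against 15.1% of all genes. The summed signal of the list was 10.96 in CON 7 and 10.23 to 10.63 in the others. Mx2, an antiviral GTPase, was at 5.06 in CON 3, had a median of 6.07 and was highest in CON 5 at 6.99. Irf7, the factor that amplifies the response, was at 7.70 in CON 7 and 6.46 to 7.24 in the others, and Ifit3 at 6.64 against 5.66 to 6.17. Ifit1, an inhibitor of viral translation, did not follow the list. It was at 3.63 to 3.97 in CON 1, CON 3 and CON 4, under the background threshold, and at 5.80 to 7.09 in CON 2, 5, 6 and 7, with an SD of 1.47. Oas1k, of the oligoadenylate synthetases, was at 5.24 to 5.39 in CON 1 to 4 and at 6.09 to 6.84 in CON 5 to 7. Of 9 genes of antigen presentation by MHC class II 6 were highest in CON 7, against 13.8% of all genes, and 7 were lowest in CON 6, also against 13.8%, such as RT1-Bb (7.62 and 6.80). Neutrophil genes were dim, with 1 of 8 above the background threshold, and 5 of the 8 were highest in CON 7 and 3, Ngp, Camp and Elane, in CON 3. S100a9, the one above the threshold, a calcium-binding protein of granulocytes, ran from 3.99 and 4.13 in CON 2 and CON 3 to 6.18 in CON 7, and the chemokine receptor Cxcr2 from 3.33 and 3.41 in the same arrays to 5.69 in CON 7. The summed signal of the 8 neutrophil markers was 6.55 to 7.38 in CON 1 to 6 and 7.75 in CON 7, and their part in the inflammatory genes was not tested.

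Single genes also split the arrays. Among genes above the median level 13 had a gap of at least 1 between neighbouring arrays in their order, among them Car3, Myl7, Nppa, Sln, Cdo1, Npy and Atf3 described above. Plaat3, a phospholipase of fat and other tissue, was at 5.06 in CON 6 and 6.95 to 7.98 in the other 6. Sort1, a sorting receptor of the secretory path, was at 5.84 in CON 7 and 7.72 to 8.42 in the others, and its SD fell from 0.91 to 0.33 without CON 7. Gpr63, an orphan receptor, was at 5.03 and 5.49 in CON 5 and CON 7 and at 7.03 to 7.47 in the others. Rsl1d1, a nucleolar protein, was at 7.13 and 7.22 in CON 7 and CON 6 and at 8.26 to 8.84 in the others. Cyp2j4, a fatty acid epoxygenase, was at 5.07 in CON 5, 7.54 in CON 2 and 6.29 to 6.78 in the rest, and Cxcl13, a chemokine for B cells, at 7.89 in CON 4 and 5.56 to 6.56 in the others.

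Further genes showed similar splits with smaller gaps. Hpd, an enzyme of tyrosine breakdown, was at 6.04 in CON 1 and 6.99 to 7.96 elsewhere. Trim50 was at 5.91 in CON 2, 6.85 in CON 3 and 7.27 to 8.05 elsewhere. Ifgga4l, an interferon-induced GTPase, ran from 4.72 in CON 1 and 5.56 in CON 4 to 7.84 in CON 7. Of these last 9 genes, none had the array order of the clock genes. Only Trim50 had CON 2 and CON 3 both below all other arrays, as most immediate-early genes did. That order was shown by 7.07% of all genes above the median level. Cish, a feedback inhibitor of growth hormone and cytokine signals, was lowest at 5.39 in CON 2 and highest at 8.13 in CON 3, and Reg3g, a secreted lectin, lowest at 7.10 in CON 3 and highest at 10.15 in CON 5, with values spread between and no gap of 1.

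**Figure D5:**
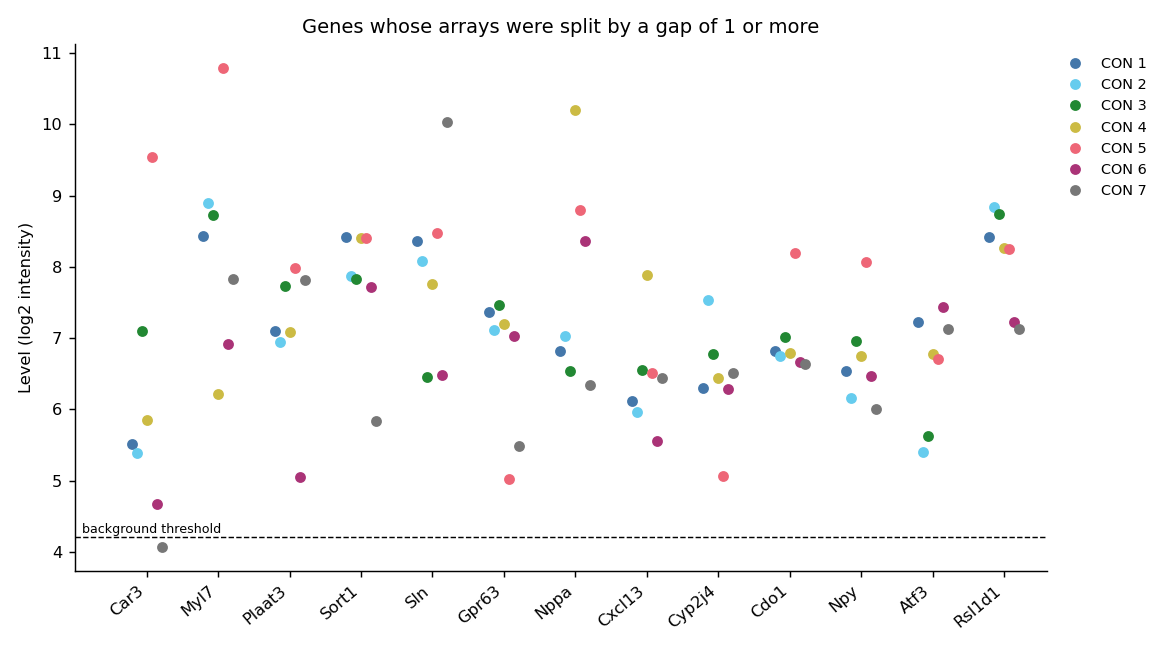
Level in log2 intensity of the 13 genes above the median level whose 7 control arrays were split by a gap of at least 1, with each array in its own colour and the background threshold as a dashed line. CON 5 lies alone at the top for Car3, Myl7, Cdo1 and Npy, CON 4 for Nppa and Cxcl13 and CON 7 for Sln, and single low arrays stand out for Plaat3 and Sort1.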

How the data were processed

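RNA of the right ventricular wall was hybridised to Affymetrix gene arrays, 1 array per sample, after sense-target labelling of 500 ng of total RNA without removal of ribosomal RNA, per the labels' protocols. The deposited values are linear intensities summarised by RMA, per the submitters' processing notes, with its software, the genome build and the arrays it was run over not given in the sources used here. RMA corrects background and makes the arrays' distributions alike, which also narrows differences between arrays. The values hold no counts, so depth does not apply, and precision is set by how many arrays there are.

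The 7 CON arrays were taken by title and log2 was applied with no further normalization. Of 29214 probe sets 18644 had 1 gene symbol, 962 had several and 9608 had none in the platform annotation, and those without exactly 1 were left out. Of the probe sets with 1 symbol, 18460 matched a gene of the RefSeq table. For the 879 genes with several probe sets the one with the highest mean was used. The genes named were the 30 with the highest mean, the 40 with the largest SD among genes above the median level, the 10 with the smallest SD and the members of fixed lists of families, cell type markers and cell states. The members and lists were chosen with earlier results of these data known, and the liver and kidney lists were written after values had been seen. Calculations used Python 3.11.15 with numpy 2.4.6, pandas 2.3.3, scipy 1.17.1 and matplotlib 3.10.9, and the ranking and spread steps were tested on simulated data. Alternatives were quantile normalization, median centring, averaging over probe sets, every probe set, a 99th percentile threshold, other measures of spread, other filters on level and leaving out each array. Promoters were taken from the RefSeq table of build GRCr8.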

Additional observations from a re-analysis of the deposited data

Results flagged for a closer look

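In the groups of values below, 1 control array lay far from the other 6, with a gap to its nearest neighbour that was large against the whole range of the gene. Among all genes above the median level 5.56% showed such a gap, and chance gives about 1 in 20. Of the 324 genes named in the text 36 did, and some of these had been named because of it.

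CON 4 was the high array for the liver products Alb (9.48, others 3.67 to 4.94), Ahsg (7.06, others 3.27 to 4.04), Gc (6.75), Hpx (6.00), Cyp2c11 (5.76), C3 (7.05, others 4.21 to 5.23) and Fabp1 (4.38), and for the chemokine Cxcl13 (7.89, others 5.56 to 6.56). It was also high for the stress-related genes Xirp2 (10.81) and Hsp90aa1 (10.05), and, by small margins, for the bright muscle and mitochondrial genes Cycs (12.26, others 11.99 to 12.06), Ndufc2 (12.28), Slc25a4 (12.32), Lpl (12.18), Tnnc1 (12.22) and Tpm1 (10.18), and for the dim channel subunit Kcne1 (4.98). CON 4 was the low array for Ckm (11.94, others 12.02 to 12.07), Cpt1a (8.25, others 8.61 to 8.86) and the sodium channel subunit Scn4b (8.06, others 8.62 to 8.80).

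CON 5 was high for the fat genes Adipoq (7.33), Cidec (5.82) and Plin1 (5.33), for Cdo1 (8.20) and for the atrial gene Mybphl (5.13, others 3.19 to 3.54). CON 1 was high for the kidney genes Kap (4.25), Slc34a1 (4.58) and Slc3a1 (4.31). It was low for the muscle genes Ryr2 (11.02, others 11.19 to 11.30) and Abcc9 (10.29, others 10.50 to 10.64). On a second probe set of Abcc9, CON 1 was at 9.83 and CON 4 at 9.86, so CON 1 did not stand apart there. CON 7 was high for Dusp1 (11.06), Gys1 (9.50) and Cox6b2 (4.49) and low for Sort1 (5.84, others 7.72 to 8.42). CON 6 was low for Plaat3 (5.06, others 6.95 to 7.98) and high for Cacna1e (3.88), which lay under the background threshold in every array.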

How the results depend on the processing

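The count of genes above background, 11339, was 11327 after quantile normalization, 11300 when probe sets were averaged and 9657 with the 99th percentile as threshold, and 11171 to 11501 when each array was left out. Of the 30 brightest genes 29 were kept after quantile normalization, 24 with the mean of probe sets and 28 to 30 without single arrays. Of the 40 most variable genes 27 were kept with the median absolute deviation, 33 with the SD over mean of linear intensities and 33 to 37 without single arrays. Taking all genes in place of those above the median kept 14 of the 40 and raised the count with an SD of 0.3 or more from 290 to 958, and taking genes above background kept 23 and gave 571, since dim genes enter. That count was 264 to 309 without single arrays. Of the family genes 232 to 239 were above background without single arrays, against 234. The clock genes with CON 1, 2 and 4 apart numbered 14 to 15 and the immediate-early genes with CON 2 and 3 lowest 11 to 13 without single arrays, and leaving out an array can only raise these. With the mean of probe sets the level moved by more than its SD for 15 named genes, such as Gapdh (11.67), Prkaa2 (11.75), Ptprs (10.54), Ndufc2 (8.85), Cd4 (6.26), Klf9 (6.80) and Kcnj2 (6.08). No paired analysis was possible because 1 group was described and no groups were compared. Levels near the background threshold of 4.20 cannot be told from background.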

Other observations

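Below the median level, where the report's ranking by spread did not reach, 2717 genes lay above the background threshold, and 281 of them (10.3%) had an SD of 0.3 or more over the 7 control arrays. The genes named here were chosen after their values were seen, by their large SD. Liver products of CON 4 led with Alb, and C3, the central complement component, which liver and macrophages make, was at 7.05 there. The tissue marker genes of CON 5 went beyond fat and atrium. Epyc, a small proteoglycan of cartilage, was at 7.17 in CON 5, and the imprinted gene Nnat, known from brain and fat, at 7.07. Cxcl2, a neutrophil chemokine, was lowest in CON 2 and CON 3, at 3.22 and 3.68, as were Il1b and S100a9 in the report. No hypothesis was tested.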
